A study of Rattus norvegicus with 24 samples.

Results

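The genes described here serve protein folding in the endoplasmic reticulum (ER) and the unfolded protein response, measured in rat thyroid. The set holds 41 genes named by symbol: chaperones, disulfide isomerases, lectin chaperones, ER-associated degradation, translocation and stress sensing. Of these, 39 had at least 1 Affymetrix probe set annotated to a single gene symbol, out of 14217 genes with such a probe set. Ern1, which encodes the sensor IRE1 alpha, and Derl3, a degradation factor, had none and are not measured here. The 39 genes have 61 probe sets, and the brightest on average stands for its gene. All 39 passed the filter on low signal, which 10643 of the 14217 genes passed.

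Thyroid RNA from male adult Sprague-Dawley rats was measured on 24 arrays, in 8 groups of 3. All animals were housed for 2 months plus 1 or 14 days. At each of those times the groups were the iodine-deficient diet with perchlorate in the drinking water (called diet plus perchlorate below), the deficient diet with plain water, the normal diet with perchlorate, and controls on normal diet and plain water. Perchlorate was given as 95 mg potassium perchlorate per liter for the last 1 or 14 days, whereas the diets ran for the whole period. The labels do not say whether the arrays of a group are separate animals, so p-values cover only the spread between arrays, which could be technical. The labels also number the arrays group by group, so that a processing order, if the numbers follow one, cannot be told apart from the groups.

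Perchlorate blocks the sodium iodide symporter and so, like a diet poor in iodine, limits the iodide that follicular cells can take up to make thyroid hormone. The follicular cell secretes thyroglobulin, a very large glycoprotein that must be folded, disulfide-bonded and glycosylated in the ER before it reaches the follicle lumen. When folding falls behind, the sensors IRE1, PERK and ATF6 raise chaperones and degradation factors, through XBP1, ATF4 and cleaved ATF6, and slow translation. This programme is called the unfolded protein response, and ER-associated degradation is its route for disposing of proteins that do not fold.

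The tissue label was checked against 8 measured follicular cell markers, Tg among them, whose summed intensity was 41993 to 44326 in the diet plus perchlorate arrays at day 14, against 36719 to 37726 in their controls. Within groups, arrays correlated at r of 0.92 to 0.98 over the probe sets, and no 2 arrays held identical values. Signals are given as log2 of the intensity plus 16, after quantile normalization between arrays, and a gene is called where its adjusted p is under 0.05. Array 18, of the day 1 perchlorate group, stood apart. On it the 39 genes had a median deviation of -0.52 log2 units from their medians over all arrays. It was the lowest of the 24 arrays for 18 of the 39 genes and the highest for 8; of all genes tested it was the lowest for 25.6% and the highest for 35.6%. Array 22, a day 1 control, was the lowest for 4, namely Hyou1, Pdia3, Pdia4 and Calr. The main results that rest on these arrays are given with and without them.

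**Figure D1:**
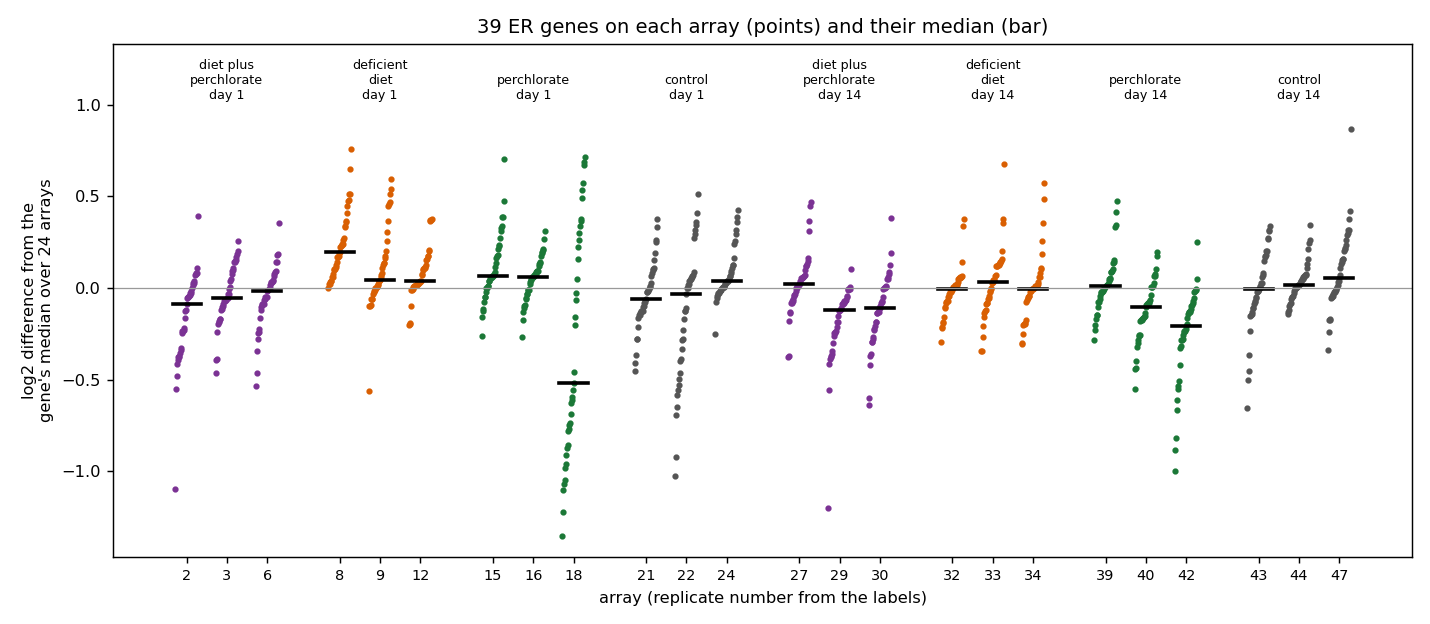
Each point is 1 of the 39 ER genes on 1 array, as its log2 difference (y axis) from that gene's median over the 24 arrays, and the black bar is the median of the 39. Arrays are ordered by group along the x axis and carry their replicate numbers; array 18 has a median of -0.52, whereas the array with the next lowest median, replicate 42 of the day 14 perchlorate group, has -0.21.

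Across all 8 groups the ER genes varied about as often as other genes. An F test for any difference among the group means (limma, Benjamini-Hochberg adjusted over 18625 probe sets) called 3 of the 39 genes, against 7.81% of all probe sets. These were Sec61a1 (adjusted p = 0.016), Derl1 (adjusted p = 0.024) and Sdf2l1 (adjusted p = 0.041). Without arrays 18 and 22 the F test called 5, with Dnajc3 and Ddit3 added, and without array 18 alone it called 6, Herpud1 included. Without array 29 (diet plus perchlorate, day 14) it called 1, Sec61a1. The share of all probe sets called in each of these refits is not given here, so these counts show no excess of ER genes. Within groups the 39 genes had a median pooled SD of 0.25 log2 units, against 0.27 for all genes tested. These values include array 18 and were not matched for signal level.

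The largest response in the thyroid as a whole came at day 14 with both treatments, and there the ER genes that passed the test were all lower. Herpud1, Derl1 and Sec61a1 fell in diet plus perchlorate against control at day 14, 3 of 39 genes, and 0 were higher. Of all probe sets, 8.86% were called in this comparison, 2.74% lower and 6.12% higher. The median log2 fold change of the 39 genes was -0.11, with 12 above 0, against -0.06 over all genes tested. In 7 of the 39 genes the 3 treated arrays did not overlap the 3 control arrays, all 7 lower, a share of 17.9% against 36.9% of all probe sets. Those 7 were Derl1, Derl2, Sec61a1, Sec61b, Ssr1, Atf4 and Ddit3. The fit without arrays 18 and 22, neither of which is in these groups, called 4, with Sec61b added.

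Perchlorate or the deficient diet alone moved no ER gene past the threshold at either time. Counts at an unadjusted p under 0.05, here and below, are given without the share over all genes. They therefore cannot tell whether ER genes were in excess or not. Perchlorate against control at day 14 called 0 of 39 by limma, against 3.6% of all probe sets; 6 of the 39 had an unadjusted p under 0.05. Its median was -0.15, with 5 of 39 above 0, against -0.04 over all genes tested, and 7 genes lay lower without overlap (17.9%, against 26.1% of all probe sets). The diet against control at day 14 called 0 of 39, against 0.22% of all probe sets; 1 of the 39 had an unadjusted p under 0.05. Its median was -0.03, as was that of all genes tested, and 6 genes did not overlap (15.4%, against 21.8% of all probe sets): Hspa5, Pdia3, Canx and Ddit3 lay higher, Derl1 and Sec61a1 lower. At day 1 limma again called 0 of 39 for diet plus perchlorate (0.601% of all probe sets), for the diet (0.0537%) and for perchlorate (0%). The numbers at an unadjusted p under 0.05 were 5, 7 and 5. Without overlap at day 1 were 5 genes in diet plus perchlorate (12.8%, against 17.7% of all probe sets) and 3 in perchlorate, Hyou1, Sdf2l1 and Fkbp2, all higher (7.69%, against 7.14%). Without arrays 18 and 22 these counts were 13 (33.3%, against 32.2%) and 13 (33.3%, against 31.5%), since groups of 2 arrays overlap less often.

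Averaged over both diets, perchlorate at day 14 gave 2 calls, Herpud1 and Ddit3, both lower (4 without arrays 18 and 22, with Sdf2l1 and Derl1), where 6.01% of all probe sets were called, 1.65% lower and 4.37% higher. Averaged over all arrays, the deficient diet gave 1 call, Sec61a1, lower (2 without arrays 18 and 22, with Eif2ak3), where 4.79% of all probe sets were called, 1.94% lower and 2.86% higher. No ER gene passed the test of a perchlorate effect that differed between diets at day 14 (0.0161% of all probe sets) or between day 14 and day 1 (0.553%); at an unadjusted p under 0.05 there were 0 and 3. Perchlorate added to the deficient diet, against the diet alone, called 0 of 39 at day 14 (0.209% of all probe sets) and 0 at day 1 (0.00537%), with 2 and 6 at an unadjusted p under 0.05. At day 14, 10 genes did not overlap in that comparison (25.6%, against 24.7% of all probe sets), 9 lower and Fkbp2 higher.

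**Figure D2:**
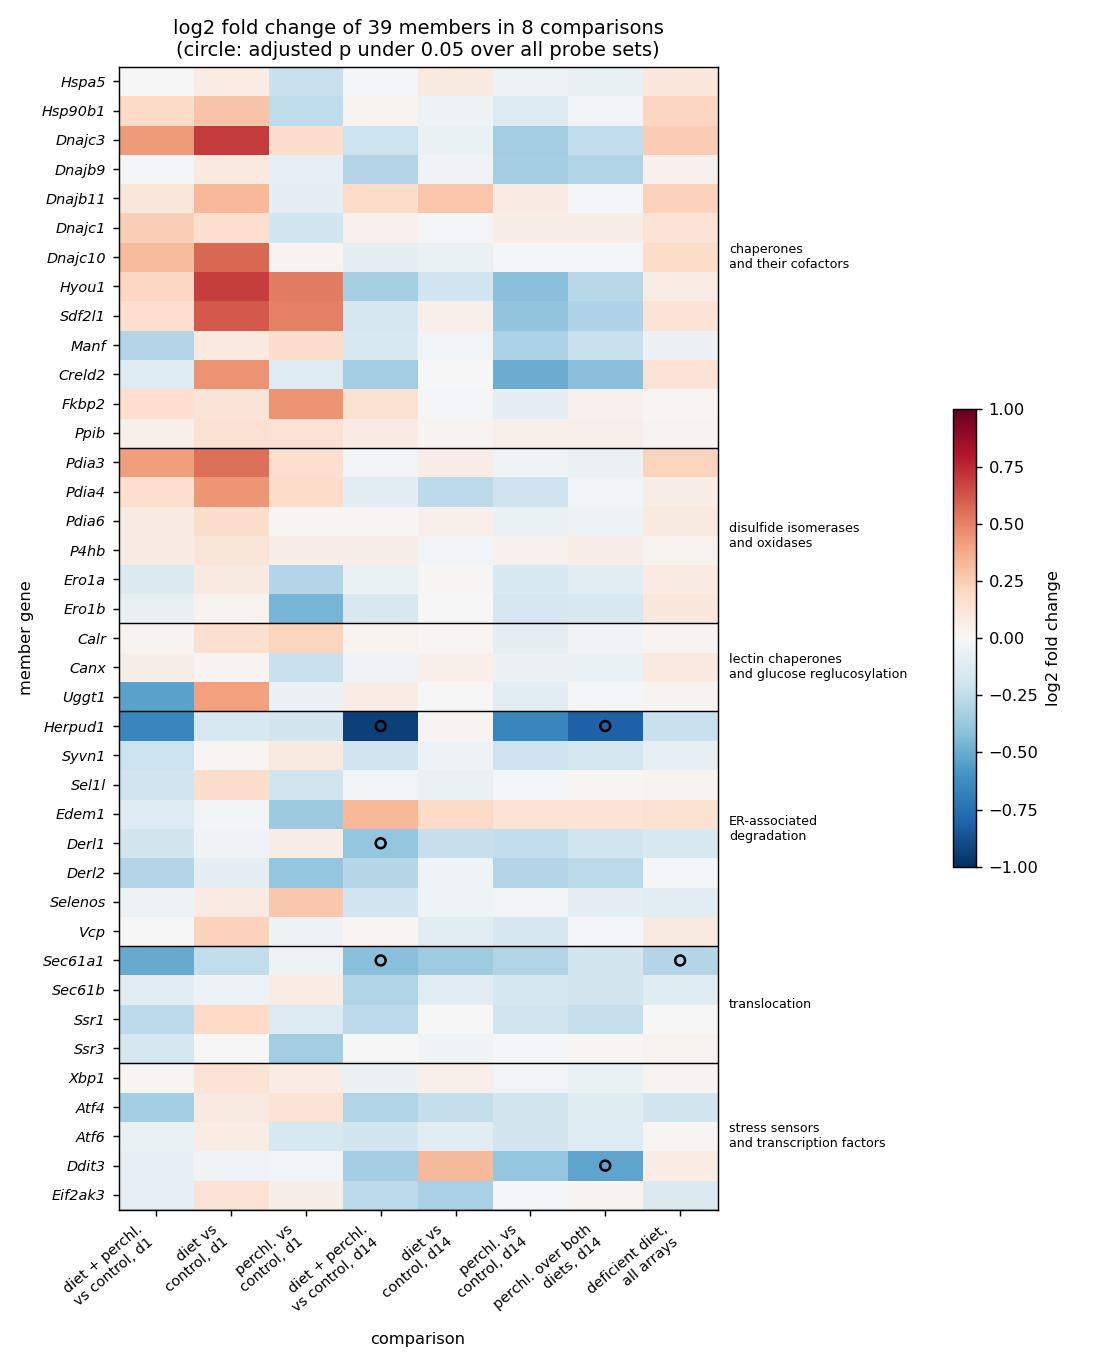
The heat map gives the log2 fold change (colour, from -1 to 1) of the 39 ER genes (rows, grouped by role) in 8 comparisons (columns), with a circle where the adjusted p over all probe sets was under 0.05. The 6 circles are all on negative values: Herpud1 in 2 comparisons, Sec61a1 in 2, Derl1 in 1 and Ddit3 in 1.

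Among the stress sensors and transcription factors, Ddit3 passed a test on all 24 arrays, and Eif2ak3 passed one only when arrays 18 and 22 were left out. Ddit3 encodes CHOP, a transcription factor induced downstream of PERK and ATF4 and known for promoting cell death under prolonged ER stress. At day 14 its log2 signal was 8.20, 7.94 and 8.07 in diet plus perchlorate and 7.92, 8.21 and 7.95 in perchlorate alone. In the arrays without perchlorate it was 8.55, 8.88 and 8.78 on the deficient diet and 8.41, 8.47 and 8.36 in controls. All 6 perchlorate arrays lay below all 6 arrays without perchlorate. The fall was 0.52 log2 units (SE 0.12), a ratio of 0.70, with a limma adjusted p of 0.013. The call was lost on the values as deposited, without normalization between arrays, where Ddit3 stood at -0.53 with an adjusted p of 0.052.

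On the deficient diet alone Ddit3 stood above its controls at day 14 without overlap, by 0.32 (SE 0.17), which did not pass (adjusted p = 0.61). The difference in perchlorate effect between the diets, -0.28 (SE 0.25), did not pass either. At day 1 perchlorate against control was -0.03 (SE 0.17), and the groups overlapped.

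On all 24 arrays the sensors and the other factors did not pass any test. Eif2ak3 encodes PERK, the kinase that slows translation. Over all arrays on the deficient diet it stood at -0.14 (SE 0.11, adjusted p = 0.50), and without arrays 18 and 22 it was lower by the test, at -0.28 (SE 0.07, limma adjusted p = 0.019). It stood at -0.26 (95% interval -0.73 to 0.21) in diet plus perchlorate against control at day 14. Atf6, the membrane-bound factor released by cleavage, stood at -0.18 (-0.64 to 0.28) in the same comparison, and at 0.03 when its 2 probe sets were averaged. Xbp1, whose RNA is spliced by IRE1 to make an active factor, stood at -0.06 (-0.28 to 0.15). Its log2 signal was 13.23, 13.08 and 13.18 in diet plus perchlorate, against 13.11, 13.26 and 13.30 in controls, so the groups overlapped. The probe set gives total Xbp1 RNA as far as its annotation goes, and splicing was not measured.

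Atf4, the factor made when PERK slows general translation, had 11.11, 11.01 and 10.95 in diet plus perchlorate at day 14, against 11.34, 11.20 and 11.43 in controls. The 3 treated arrays lay below the 3 controls, but the difference of -0.30 (SE 0.14) did not pass (adjusted p = 0.20). ATF4 is controlled mainly at translation, which RNA levels do not show.

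The chaperone class has 13 members, and limma called 0 of them in the pairwise comparisons; the most at an unadjusted p under 0.05 were 5, for the diet at day 1. Hspa5 encodes BiP, the main ER Hsp70 and the classical readout of the response. Its log2 signal at day 14 was 14.11, 14.00 and 14.00 in diet plus perchlorate, 14.11, 14.18 and 14.11 on the deficient diet, 14.09, 13.97 and 13.93 in perchlorate and 13.97, 14.09 and 14.09 in controls. All 12 arrays lay between 13.93 and 14.18, and the diet plus perchlorate and perchlorate arrays overlapped the controls. Diet plus perchlorate differed from control by -0.01 (95% interval -0.23 to 0.21) and perchlorate alone by -0.05 (-0.27 to 0.17).

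The Hspa5 probe set is one of the brightest on the array, at 51.2% to 77.7% of each array's highest probe set. The sources used here do not say how close this is to the scanner's limit, and a bright probe set can understate a change. On the values as deposited the same differences were -0.08 and -0.10 (SE 0.11 each). At day 1 perchlorate against control, Hspa5 was -0.23 (SE 0.11), and -0.02 (SE 0.07) without arrays 18 and 22. Hsp90b1, which encodes the ER Hsp90 GRP94, was at 0.03 (-0.43 to 0.49) in diet plus perchlorate and at -0.13 (-0.59 to 0.33) in perchlorate at day 14.

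Sdf2l1 was the chaperone-class member that differed among the 8 groups. It encodes a cofactor of an ER J protein that helps keep proteins from aggregating. At day 1 its log2 signal was 11.999, 12.308 and 12.236 in diet plus perchlorate, 12.709, 12.830 and 12.331 on the deficient diet, 12.295, 12.308 and 12.947 in perchlorate, and 11.827, 12.231 and 11.982 in controls. At day 14 it was 12.364, 11.845 and 11.939 in diet plus perchlorate, 12.239, 12.381 and 12.193 on the deficient diet, 12.003, 11.792 and 11.684 in perchlorate, and 12.217, 12.183 and 12.252 in controls. The group mean was highest on the deficient diet at day 1 and lowest in perchlorate at day 14, and in both cases the arrays did not overlap their same-day controls.

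None of the pairwise differences of Sdf2l1 passed on all arrays. The diet against control at day 1 was 0.61 (SE 0.17, adjusted p = 0.41), and 0.72 (SE 0.15, adjusted p = 0.075) without arrays 18 and 22. Perchlorate against control was 0.50 (SE 0.17) at day 1, or 0.40 (SE 0.16) without these arrays, and -0.39 (SE 0.17) at day 14. The change between these effects, -0.89 (SE 0.24), had an adjusted p of 0.093, and of 0.099 without arrays 18 and 22. Without those arrays Sdf2l1 passed for perchlorate over both diets at day 14, at -0.30 (SE 0.09, limma adjusted p = 0.041). The F test call of Sdf2l1 was fragile: it was lost when any 1 of 16 arrays was left out, with adjusted p up to 0.10. Those were arrays 6, 8, 9, 21 and 24 at day 1, and 29, 30, 32, 33, 34, 39, 40, 42, 43, 44 and 47 at day 14.

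**Figure D3:**
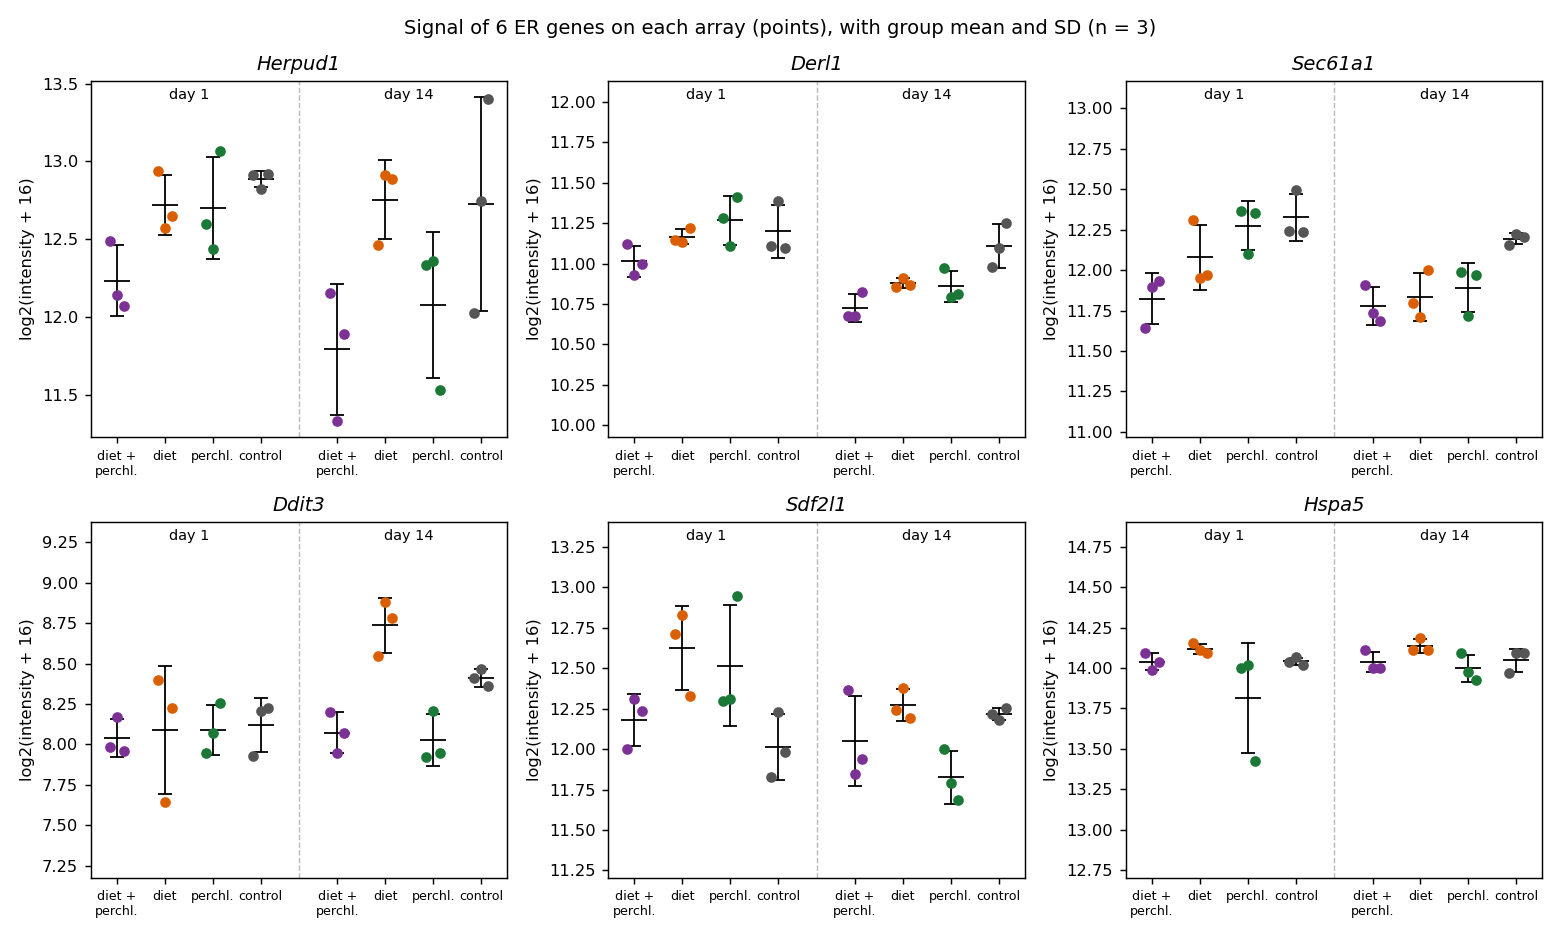
The log2(intensity + 16) signal of 6 ER genes is plotted for every array (points, 3 a group) with the group mean and SD (bars), day 1 on the left of each panel and day 14 on the right. Ddit3 at day 14 shows the 2 perchlorate groups below the 2 groups without it, and Hspa5 is level apart from array 18 at 13.42.

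At day 1 the deficient diet alone held the highest group mean for many chaperones. It was the highest of the 8 groups for 18 of the 39 ER genes (46.2%), against 6.81% of all genes tested, and for 17 of 39 without arrays 18 and 22. The fold changes against the day 1 controls were above 0 for all 13 chaperone-class genes, with a median of 0.29. With arrays 18 and 22 left out they were above 0 for 12 of 13, Dnajb9 standing at -0.05, with a median of 0.21. The median of all 39 was 0.13, with 31 above 0, against -0.02 over all genes tested. Without arrays 18 and 22 the median of the 39 was 0.08, with 28 above 0. The 3 arrays on the diet lay above the 3 controls without overlap in 10 genes, 25.6% against 12.4% of all probe sets, and below them in 0. Those 10 were Hspa5, Hsp90b1, Dnajc3, Dnajc1, Dnajc10, Hyou1, Sdf2l1, Pdia3, Pdia6 and P4hb. Without arrays 18 and 22 it was 13 genes, 33.3% against 23.1% of all probe sets, all higher. The 6 measured skeletal muscle markers summed to 1351 to 17284 in the day 1 controls, against 153 to 12401 on the deficient diet. The 6 adipocyte markers summed to 3008 to 12876, against 2345 to 5443. The part of these tissues in the higher values was not tested.

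Single values show how far the day 1 difference on the deficient diet went. Dnajc3 and Hyou1 were picked after their values were seen. Dnajc3 encodes p58IPK, a BiP cofactor. It had 12.33, 12.33 and 12.19 on the deficient diet at day 1, against 11.45, 11.48 and 11.81 in controls, a difference of 0.70 (SE 0.20, adjusted p = 0.42), and 0.65 (SE 0.13, adjusted p = 0.071) without arrays 18 and 22. Hyou1, an exchange factor for BiP, had 11.22, 11.17 and 10.74 on the diet, against 10.57, 9.78 and 10.69 in controls. Its difference was 0.69 (SE 0.22) and 0.41 (SE 0.20) without arrays 18 and 22, and in neither fit did it pass. The low control at 9.78 is array 22. Array 8 of the diet group was the highest of all 24 arrays for 13 of the 39 genes, against 3.61% of all genes tested.

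The same day 1 arrays of the deficient diet are the baseline for perchlorate added to the diet. In diet plus perchlorate against the diet alone at day 1, 16 of 39 genes lay lower without overlap (41.0%, against 15.4% of all probe sets) and 0 lay higher, with a median of -0.17 and 3 above 0. The comparisons share 3 arrays, so that a high reading in those arrays enters both with opposite sign. Atf4 had 10.76, 10.68 and 11.08 in diet plus perchlorate, against 11.38, 11.12 and 11.29 on the diet alone, a difference of -0.42 (SE 0.14) that did not pass.

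Perchlorate at day 14 gave the lowest group mean of the 8 for 8 of the 39 genes (20.5%, against 8.54% of all genes tested) and the highest for 0. Without arrays 18 and 22 it was the lowest for 13 (33.3%, against 9.23%). Array 42 of that group was the lowest of all 24 for 6 of the 39 genes, against 5.19% of all genes tested. The 6 were Sdf2l1, Manf, Creld2, Fkbp2, Syvn1 and Xbp1. Array 42 also carried skeletal muscle signal, with a summed log2 signal of the muscle markers of 62.4, against 32.2 and 33.5 on arrays 39 and 40. Arrays 2, 12, 21 and 32 of other groups had more, at 68.8, 63.7, 66.9 and 64.9. On these the 39 genes had median deviations of -0.09, 0.04, -0.06 and -0.01, against -0.21 on array 42. The part of muscle in the low values was not tested. Creld2, picked after its values were seen, is an ER stress-inducible disulfide isomerase-like protein. It had 12.51, 11.87 and 11.53 in perchlorate, against 12.29, 12.42 and 12.68 in controls. The difference of -0.49 (SE 0.22) did not pass, and the groups overlapped through array 39.

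The 6 disulfide isomerases and oxidases, which form and shuffle the disulfide bonds of thyroglobulin and other clients, had 0 calls by limma in these comparisons, and at most 2 had an unadjusted p under 0.05. A second, dimmer probe set of Pdia3 was called higher over all arrays on the deficient diet, by 0.30 (SE 0.08, limma adjusted p = 0.038). Pdia3, which encodes ERp57, the isomerase that works with the lectin chaperones, had the smallest F test p of the class. At day 1 it had 13.76, 13.91 and 13.77 on the deficient diet, against 13.52, 12.62 and 13.65 in controls. The difference was 0.55 (SE 0.20, adjusted p = 0.61) and 0.23 (SE 0.08, adjusted p = 0.42) without arrays 18 and 22; the control at 12.62 is array 22. In diet plus perchlorate against control at day 14 Pdia3 stood at -0.03 (-0.44 to 0.38). In the same comparison 2 of the 6 class members were above 0, with a class median of -0.05.

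Among the 3 genes of the lectin cycle, which retains glycoproteins until they fold, Canx had the smallest F test p. Canx encodes calnexin. It stood at -0.03 (-0.26 to 0.20) in diet plus perchlorate against control at day 14. At day 1 perchlorate differed from control by -0.22 (SE 0.11), and by -0.01 (SE 0.07) without arrays 18 and 22; array 18 had 13.19, against 13.73 to 13.97 on the other 11 day 1 arrays. With array quality weights that difference was 0.01.

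The 9 genes of ER-associated degradation, 8 of them measured, held the largest fall that passed a test, in Herpud1. Herpud1 encodes HERP, a membrane protein that organises the ubiquitin ligase complex of the pathway and is induced by the unfolded protein response. At day 14 it had 12.15, 11.33 and 11.89 in diet plus perchlorate and 12.33, 12.36 and 11.53 in perchlorate alone. It had 12.46, 12.91 and 12.89 on the deficient diet and 12.03, 12.75 and 13.40 in controls. Control 43, at 12.03, overlapped the perchlorate arrays; the other 5 arrays without perchlorate lay above all 6 with it.

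Against control, Herpud1 fell by 0.93 log2 units in diet plus perchlorate (SE 0.28, ratio 0.52, adjusted p = 0.037). This call was lost without array 29, 30, 44 or 47, with adjusted p up to 0.23. Changes of processing also lost it, among them no normalization between arrays, median scaling and no filter on dim probe sets. Averaged over both diets perchlorate lowered Herpud1 by 0.80 (SE 0.20, ratio 0.57, adjusted p = 0.016). That call was lost without array 42 of the perchlorate group, at -0.67 and an adjusted p of 0.056. Perchlorate alone gave -0.65 (SE 0.28), which did not pass (adjusted p = 0.26), and the diet alone gave 0.03 (SE 0.28).

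The bases upstream of Herpud1 are shown because this gene fell most and carries a known response element. Those of Hspa5, which also carries a response element, are shown next to them. Both are the 250 bases before the annotated start, 5′ to 3′ on the strand of the gene, in the GRCr8 build of the rat genome (RefSeq). Capitals mark the fixed bases of the ERSE-II motif in Herpud1 and of the ERSE motif in Hspa5. Herpud1 lies at chr19:10614708-10614957 on the minus strand and Hspa5 at chr3:38452766-38453015 on the plus strand.
Herpud1: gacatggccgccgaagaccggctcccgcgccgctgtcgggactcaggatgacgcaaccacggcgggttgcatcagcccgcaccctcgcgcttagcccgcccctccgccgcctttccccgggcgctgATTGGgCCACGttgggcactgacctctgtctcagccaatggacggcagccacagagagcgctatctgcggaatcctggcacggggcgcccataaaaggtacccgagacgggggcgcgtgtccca
Hspa5: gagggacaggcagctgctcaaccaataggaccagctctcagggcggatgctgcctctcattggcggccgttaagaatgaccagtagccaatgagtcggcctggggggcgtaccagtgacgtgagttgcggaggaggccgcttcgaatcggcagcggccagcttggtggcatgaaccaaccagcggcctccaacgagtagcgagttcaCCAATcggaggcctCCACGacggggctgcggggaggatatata

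Derl1 was the other degradation gene that fell in diet plus perchlorate at day 14. It encodes Derlin-1, part of the channel through which misfolded proteins leave the ER. It had 10.67, 10.67 and 10.82 in diet plus perchlorate, against 10.98, 11.10 and 11.25 in controls, without overlap. The fall was 0.38 (SE 0.12, ratio 0.77, adjusted p = 0.044). The call was lost without array 27, 29, 30, 44 or 47, with adjusted p up to 0.19. It was also lost without normalization between arrays, with median scaling, with no filter on dim probe sets and with probe sets averaged. The other 2 probe sets of Derl1 gave -0.47 (adjusted p = 0.17) and -0.10 (adjusted p = 0.81), so the fall passed on 1 of 3. Across the 8 degradation genes the median in this comparison was -0.20, with Edem1, a lectin that targets glycoproteins for degradation, at 0.34.

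Of the 4 translocation genes, which serve the channel that carries new proteins into the ER, Sec61a1 was called on all arrays. Sec61b, another channel subunit, stood at -0.30 (SE 0.15, adjusted p = 0.25) in diet plus perchlorate at day 14, and passed without arrays 18 and 22 at -0.30 (SE 0.09, limma adjusted p = 0.031). Sec61a1 encodes the pore-forming subunit. At day 14 it had 11.91, 11.74 and 11.69 in diet plus perchlorate, against 12.16, 12.22 and 12.20 in controls, without overlap. The fall was 0.42 (SE 0.13, ratio 0.75, adjusted p = 0.045). It lost its call when any 1 of the 6 arrays (27, 29, 30, 43, 44 and 47) was left out, with adjusted p of 0.063 to 0.17. The same changes of processing that lost the Derl1 call lost this call too.

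The fall of Sec61a1 on the deficient diet was firmer. Over the 12 arrays on the deficient diet its log2 signal ran from 11.64 to 12.31 with a median of 11.90, against 11.72 to 12.49 with a median of 12.21 over the 12 arrays on normal diet. The ranges overlapped. The fitted difference was -0.29 (SE 0.06, ratio 0.82, adjusted p = 0.011), and -0.26 (SE 0.06, adjusted p = 0.013) without arrays 18 and 22. It was negative in each of the 4 strata: -0.45 at day 1 with perchlorate, -0.25 at day 1 with plain water, -0.11 at day 14 with perchlorate and -0.36 at day 14 with plain water. Leaving out any 1 of the 24 arrays kept the call. It was lost with median scaling (adjusted p = 0.093), on the values as deposited (adjusted p = 0.25) and with its probe sets averaged (adjusted p = 0.081). A second probe set of the gene gave -0.33 and passed (adjusted p = 0.046), although in diet plus perchlorate at day 14 it gave -0.25 and did not (adjusted p = 0.49). The gene has 3 probe sets, and the remaining probe set was not called in either comparison.

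Promoters were available for 33 of the 41 genes, each 300 bases long, from 250 before to 50 after the start. The ER stress response element, ERSE, is bound by NF-Y with ATF6 or XBP1, and it was searched on both strands as CCAAT and CCACG with any 9 bases between them. It was found in 9 of 33 promoters of the set (27.3%), against 21 of 27457 promoters in the whole table (0.0765%). ERSE-II, searched as ATTGG and CCACG with any 1 base between them, was in 3 of 33 (9.09%), against 15 of 27457 (0.0546%). CCACG, which is part of both motifs, was in 28 of 33 (84.8%), against 32.5% of all promoters. The XBP1 core TGACGTGG was in 3 of 33 (9.09%), against 0.637%, and the cyclic AMP element TGACGTCA was in 0 of 33, against 1.91%. The amino acid response core TGATGNAA was in 1 of 33, against 3.82%. A match is a run of letters and not a site shown to be bound. The genes were picked for their part in folding and the unfolded protein response, so these shares are no test of an excess.

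The matched elements are shown because they mark which of the measured genes carry them, with the fixed bases of the motif in capitals and each read 5′ to 3′ in the orientation of the motif. Coordinates are in GRCr8, on the strand that reads as printed, and distances run from the first base of the match on the gene's strand to the start.
Hspa5, 43 bases before the start, at chr3:38452973-38452991 (plus strand): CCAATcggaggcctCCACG
Hsp90b1, 176 bases before, at chr7:23012451-23012469 (minus strand): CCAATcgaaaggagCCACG
Hsp90b1, 72 bases before, opposite strand, at chr7:23012347-23012365 (plus strand): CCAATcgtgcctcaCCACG
Dnajc3, 133 bases before, at chr15:102432534-102432552 (plus strand): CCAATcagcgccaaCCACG
Creld2, 145 bases before, opposite strand, at chr7:121789239-121789257 (minus strand): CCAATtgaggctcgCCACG
Ero1b, 224 bases before, opposite strand, at chr17:92941458-92941476 (minus strand): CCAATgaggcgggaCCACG
Calr, 232 bases before, opposite strand, at chr19:40213135-40213153 (minus strand): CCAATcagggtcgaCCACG
Canx, 230 bases before, at chr10:35158069-35158087 (minus strand): CCAATcatcacgctCCACG
Xbp1, 65 bases before, at chr14:84604558-84604576 (plus strand): CCAATcgcagacggCCACG
Derl3, 154 bases before, opposite strand, at chr20:12766601-12766619 (plus strand): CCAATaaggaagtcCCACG
Dnajb11, 10 bases before, at chr11:91672800-91672810 (minus strand): ATTGGcCCACG
Hyou1, 188 bases before, opposite strand, at chr8:53602694-53602704 (minus strand): ATTGGcCCACG
Hyou1, 88 bases before, opposite strand, at chr8:53602794-53602804 (minus strand): ATTGGgCCACG
Herpud1, 124 bases before, at chr19:10614821-10614831 (minus strand): ATTGGgCCACG

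**Figure D4:**
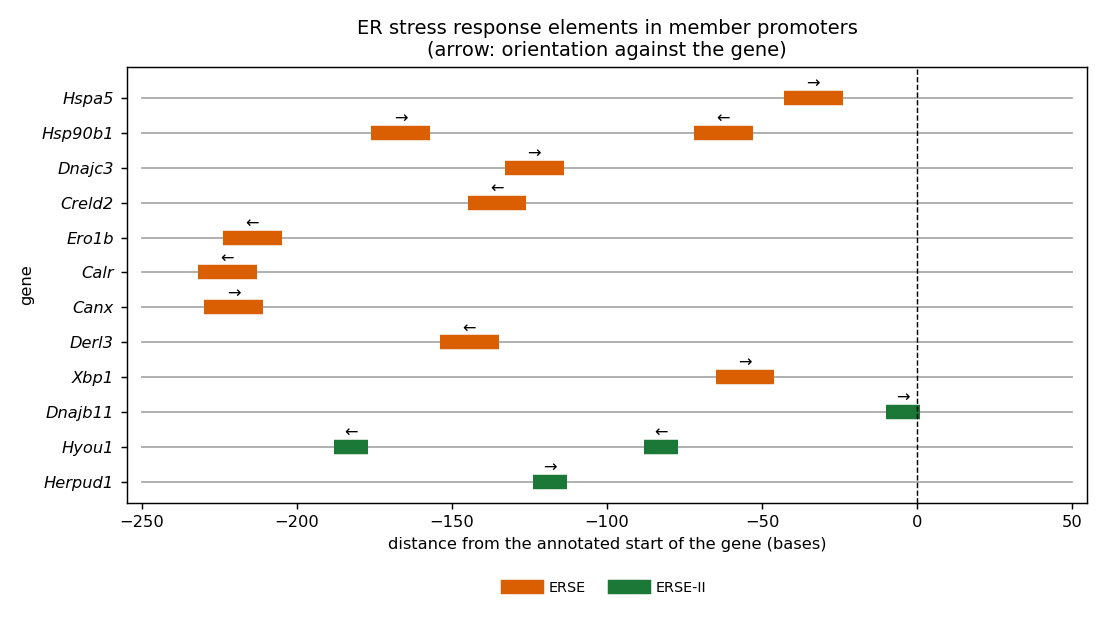
Positions of the ERSE (orange) and ERSE-II (green) matches in the 12 promoters that hold one, as distance in bases from the annotated start of the gene (x axis), with an arrow for the orientation against the gene. Hsp90b1 and Hyou1 hold 2 matches each, and the match in Dnajb11 reaches the start.

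Genes with and without either element were set side by side, with no test. Of the 12 with one, 11 were measured. In perchlorate against control at day 14 their median was -0.13, with 1 of 11 above 0, against -0.10 with 4 of 21 above 0 for the measured genes whose promoters lacked both. For the deficient diet against control at day 1 the medians were 0.16 (10 of 11 above 0) and 0.13 (16 of 21 above 0). Over all arrays on the deficient diet they were 0.11 (10 of 11) and 0.03 (15 of 21). For perchlorate over both diets at day 14 they were -0.07 (0 of 11 above 0) and -0.02 (8 of 21). For perchlorate on the deficient diet at day 14 they were -0.12 (2 of 11) and 0.04 (11 of 21). For perchlorate at day 1 they were -0.13 (4 of 11) and 0.03 (11 of 21) on all arrays. Without arrays 18 and 22, Hspa5 stood there at -0.02, Canx at -0.01, Dnajb11 at -0.0009 and Herpud1 at -0.39. The other measured genes with an element stood above 0, from 0.05 (Hsp90b1) to 0.48 (Dnajc3). The negative median of the genes with an element for perchlorate at day 1 therefore rested on those arrays. In diet plus perchlorate the genes with an element had the higher median, at -0.06 (3 of 11) and -0.11 (8 of 21) at day 14. At day 1 the medians there were 0.03 (7 of 11) and -0.08 (7 of 21). The order was the same for perchlorate on the deficient diet at day 1, at -0.13 (1 of 11) and -0.20 (2 of 21). Herpud1 was the carrier that was called. Sec61a1 and Derl1 had no promoter in the table, and Ddit3, which was also called, held neither element.

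Genes of the same pathways outside the set were read from lists. Of 18 targets of ATF4, 16 passed the signal filter, and at day 14 they split. In diet plus perchlorate against control 2 rose and 2 fell. Vldlr, a lipoprotein receptor, rose by 1.41 (SE 0.21) and Atf3, a stress-induced transcription factor, by 1.41 (SE 0.31, adjusted p = 0.005 by limma). Asns, asparagine synthetase, fell by 0.55 (SE 0.16, adjusted p = 0.032) and Slc3a2, an amino acid transporter subunit, fell by 0.69 (SE 0.20, adjusted p = 0.030). Vldlr had 9.87, 9.29 and 9.75 in diet plus perchlorate, against 8.14, 8.19 and 8.34 in controls. Atf3 had 7.89, 7.51 and 7.92, against 6.18, 6.20 and 6.69. With perchlorate alone 2 rose, Vldlr by 1.05 (SE 0.21) and Atf3 by 1.13 (SE 0.31, adjusted p = 0.044), and 0 fell. Both Atf3 and Vldlr also respond to signals outside the unfolded protein response.

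Of 19 N-glycosylation genes, 2 fell in diet plus perchlorate at day 14 and 0 rose: Ddost by 0.51 (SE 0.13, adjusted p = 0.012 by limma) and Tusc3 by 0.40 (SE 0.11, adjusted p = 0.022), both encoding subunits of oligosaccharyltransferase. Ddost had 11.54, 11.47 and 11.36 in diet plus perchlorate, against 12.01, 11.92 and 11.98 in controls, without overlap. It was also lower in perchlorate alone, by 0.46 (SE 0.13, adjusted p = 0.046). Its perchlorate effect differed between day 14 and day 1 by -0.79 (SE 0.18, adjusted p = 0.048). Over all arrays on the deficient diet, 3 of 19 other degradation genes fell, Man1b1, Rnf5 and Aup1, by 0.29, 0.32 and 0.40. In that comparison 1 of 18 other translocation and signal peptide genes fell, Ssr4 by 0.31 (limma adjusted p of 0.029 to 0.044 for these 4), and 0 genes of either list rose. In the lists of other ER oxidoreductases and chaperones (28 tested), ER to Golgi transport (27) and other regulators of the response (19), 0 were called in any of the 12 comparisons by limma. The F test over the 8 groups called 2 of the 28, Erp29 and Ganab, and 0 of the 27 and of the 19. At an unadjusted p under 0.05 there were 5, 1 and 2 in diet plus perchlorate at day 14, and 10, 5 and 3 over all arrays on the deficient diet.

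The folding client itself did not pass. Tg, the thyroglobulin gene, had 13.99, 13.91 and 13.94 in diet plus perchlorate at day 14, against 13.78, 13.69 and 13.82 in controls. The treated arrays lay above the controls, but the difference of 0.18 (95% interval -0.03 to 0.39) had an adjusted p of 0.31. In perchlorate alone Tg stood at 0.05 (-0.16 to 0.26). Like Hspa5 it is among the brightest probe sets, at 46.0% to 71.6% of each array's highest.

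Markers of other cells moved in the comparisons in which ER genes fell. In diet plus perchlorate against control at day 14, 5 of 6 endothelial, 6 of 7 macrophage, 4 of 6 fibroblast and 3 of 3 plasma cell markers tested were higher, and 4 of 7 C cell markers were lower. The summed intensity of the 6 endothelial markers was 20259 to 21290, against 7857 to 10917 in controls. That of the 7 macrophage markers was 3002 to 4314, against 1136 to 1517. The 6 measured plasma cell markers, of 7 listed, summed to 1251 to 1308, against 574 to 724; plasma cells carry much ER machinery of their own. The 7 C cell markers summed to 16513 to 26578, against 30457 to 36705. Of the 8 follicular markers 2 were higher (Slc5a5 and Cdh16) and 1 was lower (Foxe1). The 6 fibroblast markers summed to 29124 to 37345, against 17001 to 27307. None of the lymphocyte (2 of 8 tested), skeletal muscle or adipocyte markers was called. The 6 adipocyte markers summed to 1108 to 1563, against 2774 to 4200. Single arrays differed widely within groups. Muscle markers summed to 216 to 23069 in diet plus perchlorate at day 1, and lymphocyte markers to 214 to 2248 in that treatment at day 14. Array 29, among those without which the Herpud1 and Derl1 calls were lost, had a lymphocyte median deviation of 1.47, against 0.11 and -0.08 on arrays 27 and 30. For perchlorate over both diets, 4 endothelial, 5 macrophage, 3 fibroblast and 2 plasma cell markers were higher and 0 of the C cell markers were called. For the deficient diet over all arrays, 2 endothelial, 2 macrophage and 2 plasma cell markers were higher and 3 C cell markers were lower. The part of these shifts in the falls of Herpud1, Derl1, Sec61a1 and Ddit3 was not tested. In whole thyroid, fewer cells of a type and less RNA per cell cannot be told apart.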

How the data were processed

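The deposited table holds linear probe set intensities of 24 Affymetrix arrays, 1 per sample; per the submitters' processing notes the authors used GCOS, whose settings and version are not given in the sources used here. The 57 control probe sets were left out. Intensities plus 16 were log2-transformed, quantile-normalized between arrays and filtered at the 40th percentile of mean log2 signal, which left 18625 of 31042 probe sets. One mean per group was fitted over all 24 arrays with limma 3.58.1 in R 4.3.3 (empirical Bayes, mean-variance trend), with p-values adjusted by Benjamini-Hochberg over all probe sets tested and called under 0.05, two-sided. The fit was tested on simulated data. Intervals are 95% and on the log2(intensity + 16) scale, which understates changes of dim probe sets; 3 arrays a group limit the precision.

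A gene was represented by its brightest probe set. Named genes were every called member, the smallest F test p of each role class, the sensors, Hspa5, Hsp90b1 and Tg. The members, lists and tests were chosen with earlier results of these data known. Symbols came from the platform annotation; all 39 matched RefSeq by Entrez number. Promoters are RefSeq's. Alternatives varied normalization, pseudocount, filter, samples in the fit, array weights, probe set choice and single arrays.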

Additional observations from a re-analysis of the deposited data

How the results depend on the processing

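No paired analysis was possible because each replicate number occurs in 1 group. The count of ER genes called rested on the processing. Each count below is given without the share of all probe sets called in the same fit, so a higher count shows no excess of ER genes. In diet plus perchlorate at day 14 it was 3 of 39, and 0 without normalization, with median scaling or with no filter on dim probe sets, 1 (Herpud1) with a gene's probe sets averaged, 4 without arrays 18 and 22 (Sec61b added), and 0 to 2 when 1 array was left out. For perchlorate over both diets it was 2, and 1 without normalization, 6 with only the groups compared in the fit, 5 with array quality weights, 4 without arrays 18 and 22, and 1 to 3 with 1 array left out. For the deficient diet over all arrays it was 1, and 0 with median scaling or averaged probe sets, 2 with array weights or without arrays 18 and 22 (Eif2ak3 added), and 1 to 2 with 1 array left out (2 without array 12, 15 or 16). Without normalization the count for the diet stayed at 1, but the gene called was not Sec61a1 (limma adjusted p = 0.25). The F test gave 3, and 0 without normalization, 1 with median scaling or averaged probe sets, 6 with array weights, 5 without arrays 18 and 22, and 1 to 6 with 1 array left out. Array weights also gave 1 call for the diet at day 14 (Sec61a1), 1 for the diet at day 1 (Dnajc3), 1 for diet plus perchlorate at day 1 (Sec61a1) and 2 for perchlorate on the deficient diet at day 14 (Herpud1 and Ddit3), against 0 in each. The test of the perchlorate effect at day 14 minus day 1 gave 0 to 1 with 1 array left out (Sdf2l1 without array 15, Dnajc3 without array 18).

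The members' median log2 fold change in perchlorate at day 1 was -0.03 and ran from -0.084 to 0.106 with 1 array left out, the highest without array 18. Without normalization it was 0.118 for diet plus perchlorate at day 1 (all probe sets shifted by 0.20), against -0.05, and -0.111 for the difference between diets at day 14 (all probe sets -0.22), against 0.06. For the perchlorate effect at day 14 minus day 1 it was -0.10, and -0.286 with median scaling and -0.245 to -0.0058 with 1 array left out. Canx in perchlorate at day 1 was -0.224, and 0.0083 with array weights, and Atf6 in diet plus perchlorate at day 14 was -0.182, and 0.032 with averaged probe sets; neither passed the test. The cause was not tested. Bright probe sets such as Hspa5 may be compressed, and 3 arrays a group limit all differences.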
